A study of Mus musculus with 12 samples.

Results

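Metallothioneins and genes of cellular zinc handling were examined in mouse collecting duct cells given mifepristone, added salt or both. The 10 genes were Mt1, Mt2, Mtf1, Slc30a1, Slc30a4, Slc30a5, Slc39a4, Slc39a8, Slc39a10 and Slc39a14. They were found by symbol, 1 row each, among the 48034 genes of the expression table. Of the 10, 9 passed the filter for testing, which asked for 1 FPKM or more in 3 or more libraries, as did 14044 genes in all. FPKM counts fragments scaled to transcript length and library size. Slc39a4 did not pass. Slc39a8 passed only through the vehicle libraries, where it was highest.

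All libraries came from the 53a subclone of IMCD3, an epithelial cell line of the mouse inner medullary collecting duct. They form 4 groups of 3 libraries. They were cells given vehicle, vehicle with 100 mM added NaCl, mifepristone, and mifepristone with 100 mM added NaCl. As known from the study, all 4 groups carry an inducible, dominant-negative form of a kidney tubule transcription factor, and mifepristone switches it on. The labels give no treatment times. No library came from cells without the mutant, so an effect of mifepristone itself and an effect of the mutant cannot be told apart. The cells were 1 subclone, and the labels do not tie the replicates to separate cultures, so the spread behind each p-value may be technical only.

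Metallothioneins are small, cysteine-rich proteins that bind zinc and copper and buffer the free metal in the cytosol. When free zinc rises, the transcription factor encoded by Mtf1 binds metal response elements and activates Mt1, Mt2 and Slc30a1. Carriers of the SLC30 family move zinc out of the cytosol, either out of the cell or into organelles, and carriers of the SLC39 family move zinc into the cytosol. Glucocorticoids also induce metallothionein genes, and mifepristone is known as an antagonist of the progesterone and glucocorticoid receptors.

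The 250 bases before the RefSeq start are shown for the metallothionein genes and for the zinc exporters Slc30a1 and Slc30a4, since these 4 had the largest changes of the 10 genes between mifepristone and vehicle cells on the log2(FPKM + 0.5) scale. Sequences are RefSeq promoters of GRCm38.p6, 5′ to 3′ along the gene, and capitals mark matches to the core of the metal response element on either strand.
Mt1 (chr8:94178839-94179088, plus strand): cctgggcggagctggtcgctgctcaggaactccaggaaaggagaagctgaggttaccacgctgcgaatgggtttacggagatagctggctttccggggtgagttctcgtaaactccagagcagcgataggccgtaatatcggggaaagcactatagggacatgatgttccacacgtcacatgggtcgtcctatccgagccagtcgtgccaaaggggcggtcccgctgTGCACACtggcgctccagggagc
Mt2 (chr8:94172368-94172617, plus strand): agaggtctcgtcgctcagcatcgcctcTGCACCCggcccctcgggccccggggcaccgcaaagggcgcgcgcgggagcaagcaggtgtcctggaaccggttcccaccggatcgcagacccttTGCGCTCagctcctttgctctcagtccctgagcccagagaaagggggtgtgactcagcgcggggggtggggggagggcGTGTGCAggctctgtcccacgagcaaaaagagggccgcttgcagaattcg
Slc30a1 (chr1:191906531-191906780, plus strand): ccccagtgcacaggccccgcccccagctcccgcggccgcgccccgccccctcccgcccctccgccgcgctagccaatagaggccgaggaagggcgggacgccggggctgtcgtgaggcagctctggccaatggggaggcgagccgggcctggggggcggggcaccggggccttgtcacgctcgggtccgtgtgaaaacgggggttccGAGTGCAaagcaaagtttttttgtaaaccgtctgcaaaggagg
Slc30a4 (chr2:122702664-122702913, minus strand): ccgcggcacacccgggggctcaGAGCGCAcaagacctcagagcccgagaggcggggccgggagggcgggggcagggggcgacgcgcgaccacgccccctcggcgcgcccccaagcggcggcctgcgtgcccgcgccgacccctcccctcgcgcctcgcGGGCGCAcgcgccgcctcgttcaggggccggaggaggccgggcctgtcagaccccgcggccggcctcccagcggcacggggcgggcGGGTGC
The motif was searched as TGCACNC or TGCGCNC on both strands, from 250 bases before to 50 bases after the start. Over that window Mt2 held 4 matches, at -223 to -217, -128 to -122, -50 to -44 and 5 to 11. Mt1 held 3, at -23 to -17, 3 to 9 and 21 to 27, so only 1 lies in the stretch shown. Whether the RefSeq start used is that of the usual Mt1 transcript was not tested. From another start, the number of Mt1 matches and their place before or after the start could differ. Slc30a1 held 2, at -43 to -37 and 31 to 37. Slc30a4 held 3, at -228 to -222, -92 to -86 and -6 to 1, the last of which crosses the start. Of 32851 promoters of the same length, 25.7% held at least 1 match, 7.11% at least 2, 1.97% at least 3 and 0.517% at least 4. Among the other genes, Slc30a5 held 1 match, Slc39a8 held 1 in 1 of its windows, and Slc39a10 and Mtf1 held 0. The osmotic response element, the site of the hypertonicity factor NFAT5, had 0 matches in the windows of these genes, against 4.96% of all promoters with at least 1. Windows were found for 8 of the 10 genes, not for Slc39a4 and Slc39a14. A match is a run of letters and not a measured binding site.

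Both metallothionein genes were highest in vehicle cells, lower with either treatment and lowest with both. Mt1 (chr8:94179082-94180327, plus strand, GRCm38, protein coding) read 188, 178 and 176 FPKM in the vehicle libraries. With added NaCl it read 64.6, 67.3 and 66.9, and with mifepristone 40.4, 40.9 and 51.6. With both it read 8.53, 8.99 and 6.36. No library of one group overlapped another group, and the order of the 4 groups was the same for every library. The share of all tested genes whose groups separate in this way was not counted, here or for the genes below. In the 4 comparisons with mifepristone or NaCl, 56.7% to 59.7% of all tested genes passed the test, so separation need not be particular to these genes. Group means were 181 ± 6.50, 66.3 ± 1.48, 44.3 ± 6.33 and 7.96 ± 1.40 FPKM (SD, n = 3 each). In bulk RNA, fewer cells that express a gene and less RNA per cell cannot be told apart.

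Mt2 (chr8:94172664-94173568, plus strand, upstream of Mt1) ranked the groups in the same way. Its vehicle libraries read 72.9, 69.1 and 64.7 FPKM, and its vehicle libraries with NaCl read 27.6, 27.4 and 27.8. Mifepristone libraries read 8.74, 11.0 and 11.3, and those with both treatments read 2.24, 2.01 and 1.51. The groups again did not overlap. Means were 68.9 ± 4.07, 27.6 ± 0.159, 10.3 ± 1.38 and 1.92 ± 0.373 FPKM (SD, n = 3 each). Even the lowest group rested on whole reads, with 42 to 57 reads per library for Mt2 and 587 reads in all for Mt1.

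Without added NaCl, Mt1 changed by -2.03 and Mt2 by -2.69 on the log2(FPKM + 0.5) scale in mifepristone cells against vehicle cells. These are 4.08-fold and 6.44-fold lower levels (SE 0.118 and 0.113 in log2 units, limma adjusted p = 7.18e-08 and 5.11e-09). With NaCl in both arms the fall was larger. Mt1 was then 7.97-fold lower (log2 change -2.99, adjusted p = 2.72e-09) and Mt2 was 11.7-fold lower (log2 change -3.55, adjusted p = 4.98e-10). This placed Mt2 at rank 5 and Mt1 at rank 12 among all falls in that comparison. A fall of at least 2-fold that passed the test was seen for 2.33% of all tested genes without NaCl and for 2.51% with it.

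NaCl alone also lowered both genes, where 1.28% of tested genes in vehicle cells and 1.83% in mifepristone cells fell by at least 2-fold and passed the test. In vehicle cells Mt1 was 2.72-fold lower (log2 change -1.44, limma adjusted p = 1.76e-06) and Mt2 was 2.47-fold lower (log2 change -1.30, adjusted p = 2.81e-06). In mifepristone cells the same salt gave 5.31-fold lower Mt1 (log2 change -2.41, adjusted p = 2.15e-08) and 4.49-fold lower Mt2 (log2 change -2.17, adjusted p = 3.51e-08). The difference between these salt effects was tested as an interaction. It was -0.97 (SE 0.167, adjusted p = 0.00144) for Mt1 and -0.86 (SE 0.160, adjusted p = 0.00215) for Mt2, so the fall with NaCl was larger in log2 units in mifepristone cells. In absolute FPKM the order was the opposite, since the vehicle cells started from a higher level. The interaction passed the test for 31.1% of all tested genes, and was negative and passed for 17.5%.

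**Figure D1:**
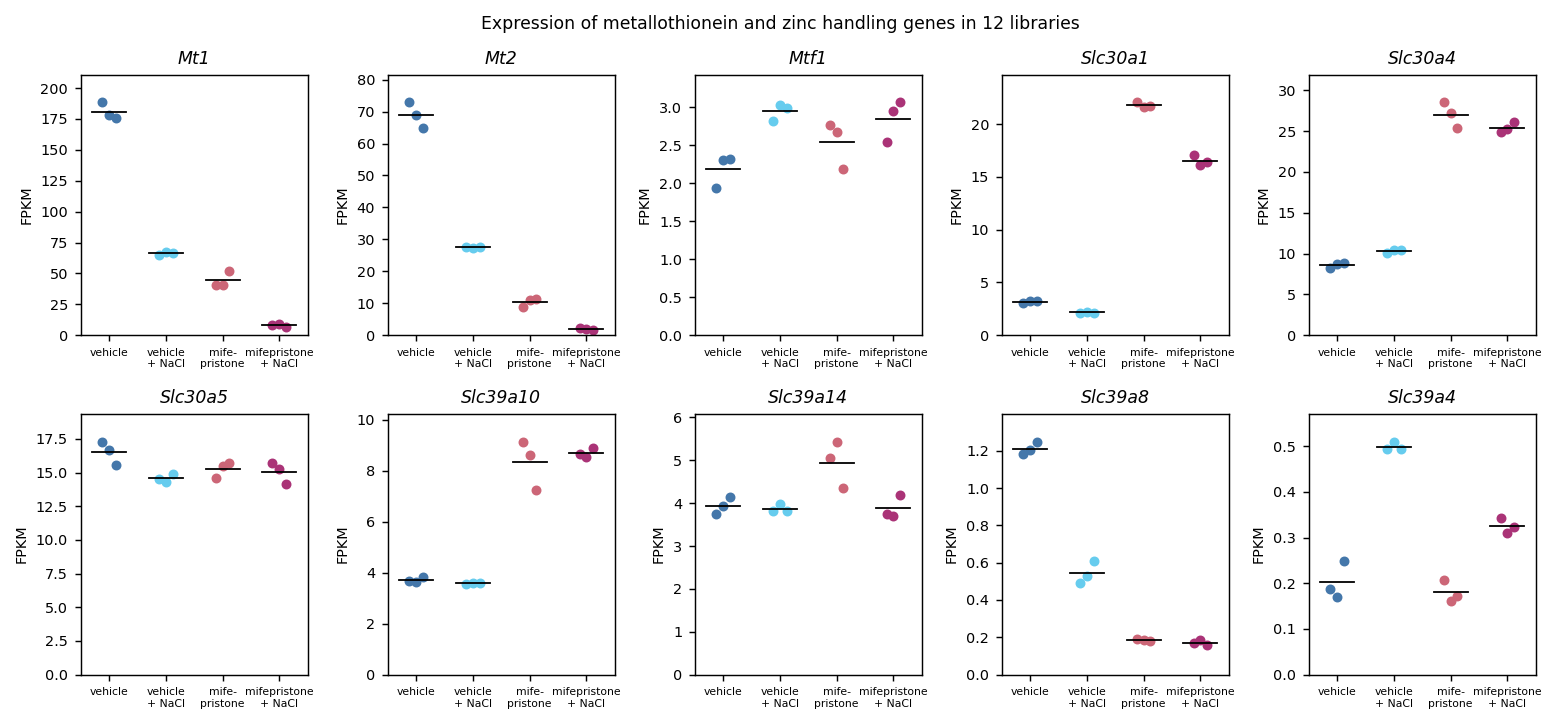
FPKM (vertical axes, each from 0) of the 10 genes in the 12 libraries, by group (horizontal axes). Points are libraries and bars are group means. Mt1 and Mt2 step down from vehicle to mifepristone with NaCl without overlap between groups, while Slc30a1, Slc30a4 and Slc39a10 are higher in every mifepristone library than in every vehicle library.

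The metallothionein genes did not fall in proportion. Mt1 exceeded Mt2 2.63 ± 0.0794-fold in FPKM in vehicle cells, 2.4 ± 0.0566-fold with NaCl, 4.31 ± 0.498-fold with mifepristone and 4.17 ± 0.332-fold with both (SD, n = 3 each). The ratio was 2.34 to 2.72 in the 6 vehicle libraries and 3.73 to 4.62 in the 6 mifepristone libraries, so the arms did not overlap. In an exact permutation test over libraries within each NaCl condition, the log2 ratio was 0.75 higher in mifepristone cells (two-sided p = 0.005, the smallest that the 400 arrangements allow). The difference with NaCl, taken over both arms, was -0.09 (exact permutation p = 0.19). Within the vehicle arm the ratio was 2.58 to 2.72 without NaCl and 2.34 to 2.45 with it, without overlap. Within the mifepristone arm the salt conditions overlapped, at 3.73 to 4.62 and 3.81 to 4.47. The longest exact run shared by the Mt1 and Mt2 transcripts was 20 bases, and how reads that match both were counted is not given in the sources used here. An antisense gene, Gm45774, overlaps Mt2 on the opposite strand and is not a row of the expression table. It shares 432 of the 588 exon bases of Mt2. Whether the counting used strand is not given either.

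**Figure D2:**
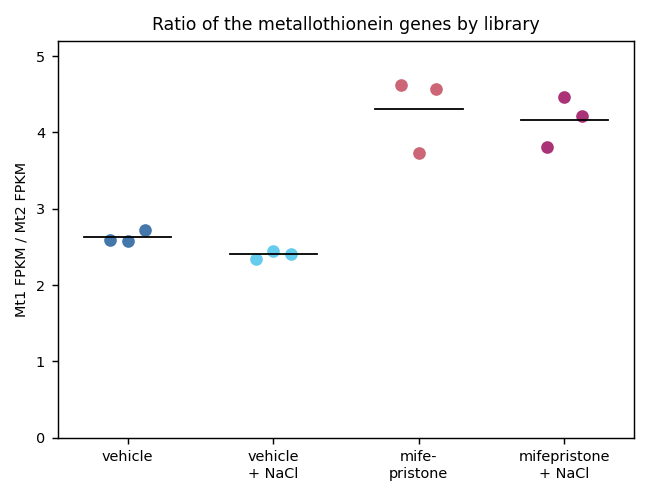
Ratio of Mt1 FPKM to Mt2 FPKM (vertical axis, from 0) in each of the 12 libraries, by group (horizontal axis). Points are libraries and bars are group means. The 6 mifepristone libraries lie at 3.73 to 4.62, above the 6 vehicle libraries at 2.34 to 2.72.

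Mt1 and Mt2 are short genes, with 1246 and 588 exon bases when all annotated transcripts are merged. For Mt1 these bases form 1 block over the whole gene, so the number is not the length of its usual transcript. Vehicle library A and mifepristone library C carried relatively less of longer genes than the other libraries of their groups (Spearman correlation across 13916 genes between deviation and exon length, -0.44 and -0.51). Without these 2 libraries, Mt1 changed by -2.11 and Mt2 by -2.71 with mifepristone in the absence of NaCl. Both values lay within 1 standard error of those from all libraries.

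Mtf1 (chr4:124802104-124849800, plus strand), the zinc-sensing activator of the metallothionein genes, varied little. Its vehicle libraries read 1.94, 2.30 and 2.32 FPKM, and its vehicle libraries with NaCl 2.82, 3.02 and 2.99. Mifepristone libraries read 2.76, 2.67 and 2.19, and those with NaCl 2.54, 2.95 and 3.06. The single change that passed the test was a 1.28-fold rise with NaCl in vehicle cells (log2 change 0.36, limma adjusted p = 0.00490). The log2 differences were 0.18 (SE 0.0881, adjusted p = 0.107) with mifepristone without NaCl, -0.04 (adjusted p = 0.701) with mifepristone under NaCl and 0.14 (adjusted p = 0.190) with NaCl in mifepristone cells. The first of these ranged from 0.11 to 0.26 when single libraries were left out. It was lowest without vehicle library A (adjusted p = 0.336), and highest, with a call, without mifepristone library C (adjusted p = 0.0143). The interaction was -0.22 (adjusted p = 0.207), and -0.31 (adjusted p = 0.0382) without mifepristone library C. A gene on the opposite strand, 1110065P20Rik, overlaps Mtf1 and had mean FPKM of 1.51 to 2.04 in the 4 groups.

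The exporters were led by Slc30a1 (ZnT1; chr1:191906767-191913247, plus strand), the main carrier of zinc out of the cell across the plasma membrane. It read 3.04, 3.24 and 3.26 FPKM in vehicle cells and 22.1, 21.7 and 21.7 in mifepristone cells. With NaCl it read 2.11, 2.23 and 2.15 in vehicle cells and 17.1, 16.2 and 16.5 in mifepristone cells. Every mifepristone library was higher than every vehicle library, and every library with NaCl was lower than its counterparts without it. Slc30a1 rose 6.06-fold with mifepristone without NaCl (log2 change 2.60, SE 0.0369, limma adjusted p = 4.19e-12) and 6.40-fold with NaCl (log2 change 2.68, adjusted p = 1.79e-12). It ranked 36 and 39 among all rises in these comparisons, where 4.09% and 4.15% of tested genes were called and at least 2-fold higher. Thus Slc30a1 moved with mifepristone in the direction opposite to Mt1 and Mt2, although all 3 are known targets of the factor encoded by Mtf1.

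With NaCl, by contrast, Slc30a1 fell together with the metallothionein genes. The decrease was 1.38-fold in vehicle cells (log2 change -0.47, limma adjusted p = 1.28e-06) and 1.31-fold in mifepristone cells (log2 change -0.39, adjusted p = 4.40e-06). The difference between these salt effects did not pass the test on FPKM (0.08, adjusted p = 0.277). On reads recovered from the FPKM values it did, at 0.20 (adjusted p = 0.0375).

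An antisense gene, 1700034H15Rik, lies on the opposite strand and shares 468 exon bases with the 5′ end of Slc30a1. Its mean FPKM was 0.0884 in vehicle cells, 0.0813 with NaCl, 6.21 with mifepristone and 4.52 with both. It passed the filter only through the mifepristone groups, so these levels are a description. If the counting did not use strand, reads of the pair cannot be told apart over the shared stretch, and its part in the Slc30a1 values was not tested.

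Slc30a4 (ZnT4; chr2:122681233-122702663, minus strand), which loads zinc into vesicles, also rose with mifepristone. It read 8.25, 8.70 and 8.81 FPKM in vehicle cells and 28.5, 27.2 and 25.4 in mifepristone cells. Under NaCl it read 10.1, 10.4 and 10.5 in vehicle cells and 24.9, 25.2 and 26.1 in mifepristone cells. The arms did not overlap in either salt condition. The rise was 3.03-fold without NaCl (log2 change 1.60, SE 0.0440, limma adjusted p = 1.89e-10) and 2.39-fold with it (log2 change 1.26, adjusted p = 9.78e-10). NaCl raised Slc30a4 1.19-fold in vehicle cells (log2 change 0.25, adjusted p = 0.000528). In mifepristone cells the difference was -0.09 (adjusted p = 0.112), and without mifepristone library C it was -0.13 (adjusted p = 0.0132). The salt effects differed between the arms, with an interaction of -0.34 (SE 0.0622, adjusted p = 0.00193). A gene on the opposite strand, 4930417H01Rik, shares 130 exon bases with Slc30a4 and had a mean of at most 0.332 FPKM in any group.

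Slc30a5 (ZnT5; chr13:100802648-100833427, minus strand), a carrier of the early secretory pathway, was among the steadiest of the 10 genes, with 14.2 to 17.3 FPKM over all 12 libraries. Vehicle libraries read 17.3, 16.7 and 15.6 FPKM, and mifepristone libraries read 14.6, 15.5 and 15.7. With NaCl, vehicle libraries read 14.5, 14.3 and 14.9 and mifepristone libraries 15.7, 15.3 and 14.2. It fell 1.13-fold with NaCl in vehicle cells (log2 change -0.17, limma adjusted p = 0.0114). The mifepristone difference without NaCl was -0.11 (SE 0.0492, adjusted p = 0.0750), and it passed the test under 4 other settings, at -0.12 to -0.17, of which the one without vehicle library C gave -0.15 (adjusted p = 0.0260).

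Among the importers, Slc39a10 (ZIP10; chr1:46807544-46892852, minus strand), a plasma membrane carrier, rose with mifepristone. Vehicle libraries read 3.67, 3.65 and 3.84 FPKM, and mifepristone libraries 9.14, 8.64 and 7.23. With NaCl, vehicle libraries read 3.55, 3.61 and 3.61 and mifepristone libraries 8.67, 8.55 and 8.90. Each mifepristone library was above each vehicle library, and the salt conditions overlapped. The rise was 2.09-fold without NaCl (log2 change 1.06, SE 0.0671, limma adjusted p = 1.43e-07) and 2.25-fold with it (log2 change 1.17, adjusted p = 5.91e-08). The differences with NaCl were -0.05 in vehicle cells (adjusted p = 0.587) and 0.07 in mifepristone cells (adjusted p = 0.427).

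Slc39a14 (ZIP14; chr14:70303469-70351425, minus strand), which carries zinc, iron and manganese, showed smaller changes. It read 3.76, 3.94 and 4.13 FPKM in vehicle cells and 5.07, 5.43 and 4.34 in mifepristone cells. With NaCl it read 3.81, 3.98 and 3.82 in vehicle cells and 3.76, 3.70 and 4.18 in mifepristone cells. Only the mifepristone group without NaCl stood above the others. The rise there was 1.22-fold (log2 change 0.29, SE 0.0719, limma adjusted p = 0.00490), and NaCl lowered the gene 1.24-fold in mifepristone cells (log2 change -0.31, adjusted p = 0.00332). The interaction was -0.29 (adjusted p = 0.0526). Without mifepristone library C it was -0.37 (adjusted p = 0.00331), and without mifepristone with NaCl library C it was -0.34 (adjusted p = 0.0354).

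Slc39a8 (ZIP8; chr3:135825279-135888572, plus strand), a plasma membrane carrier of zinc, manganese and cadmium, was low throughout. It read 1.18, 1.20 and 1.25 FPKM in vehicle cells, 0.491, 0.528 and 0.608 with NaCl, 0.189, 0.188 and 0.182 with mifepristone and 0.171, 0.186 and 0.156 with both. These values rest on 1271, 570, 203 and 180 reads summed over the 3 libraries of each group. Vehicle, vehicle with NaCl and the mifepristone groups did not overlap, while the latter groups overlapped each other. Since the filter was passed only through the vehicle group, a difference from that group was built into its selection. The log2 change with mifepristone was -1.32 without NaCl (SE 0.0626, limma adjusted p = 1.23e-08) and -0.63 with it (adjusted p = 5.26e-06). At such levels the added 0.5 FPKM shrinks the change, and on recovered reads the values were -2.70 and -1.63. NaCl lowered it in vehicle cells by 0.72 (adjusted p = 2.81e-06), and the difference in mifepristone cells was -0.03 (adjusted p = 0.679). The interaction was 0.68 (SE 0.0885, adjusted p = 0.000218).

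Slc39a4 (ZIP4; chr15:76612383-76617384, minus strand), the carrier of intestinal zinc uptake, was low in every group and was not among the 9 tested genes. It read 0.171 to 0.250 FPKM in vehicle cells, 0.493 to 0.510 with NaCl, 0.162 to 0.208 with mifepristone and 0.310 to 0.344 with both. The NaCl libraries were above the others in both arms. These values rest on 62, 152, 57 and 100 reads per group. Without a filter on low values, the salt difference was 0.51 in vehicle cells (limma adjusted p = 7.07e-05) and 0.28 in mifepristone cells (adjusted p = 0.00305). In the same fit it was -0.28 with mifepristone under NaCl (adjusted p = 0.00313) and -0.04 without NaCl (adjusted p = 0.674). The added 0.5 FPKM shrinks these values, and the authors' deposited table gives log2 fold changes with NaCl of 1.2 in control cells and 0.771 in mutant cells.

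**Figure D3:**
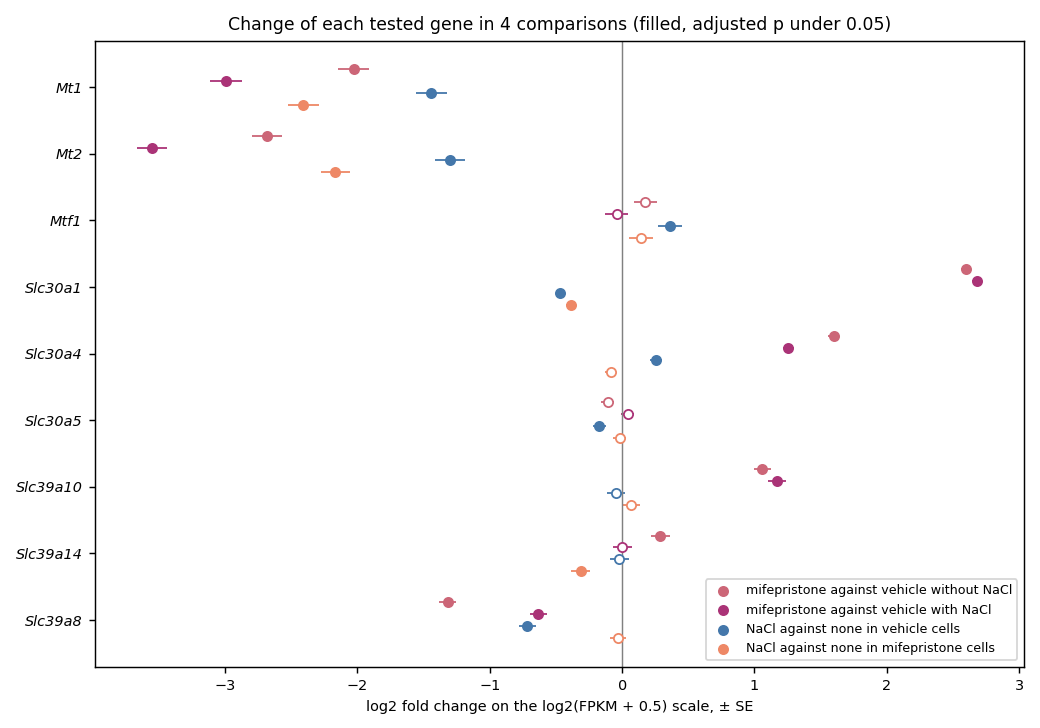
Log2 fold change on the log2(FPKM + 0.5) scale (horizontal axis) of the 9 tested genes (vertical axis) in 4 comparisons, shown by colour. Points are limma estimates, bars are ± SE, and filled points passed an adjusted p under 0.05. The points of Mt1 and Mt2 lie below 0 in each comparison, whereas those of Slc30a1 lie at 2.60 and 2.68 for mifepristone and at -0.47 and -0.39 for NaCl.

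Counted together, 4 of the 9 tested genes rose, 3 fell and 2 did not pass the test with mifepristone without NaCl, against 59.7% of all tested genes called in either direction, 28.3% higher and 31.5% lower. The median log2 change was 0.18, beside -0.01 over all tested genes. With NaCl in both arms 3 rose, 3 fell and 3 did not pass, against 58.7% called, 26.8% higher and 31.9% lower, with medians of 0.00 and -0.03. For NaCl in vehicle cells 2 rose, 5 fell and 2 did not pass, against 56.7% called, 25.2% higher and 31.5% lower, with medians of -0.17 and -0.02. For NaCl in mifepristone cells 0 rose, 4 fell and 5 did not pass, against 58.7% called, 24.5% higher and 34.2% lower, with medians of -0.09 and -0.06. For the interaction 1 was positive, 3 were negative and 5 did not pass, against 13.6% and 17.5% of all tested genes. The counts include Slc39a8, which had to differ to be tested, so they are given as a description. On the scale of the limma test, the sizes for Mt1, Mt2, Slc30a1, Slc30a4 and Slc39a10 were beyond 2-fold in both mifepristone comparisons. Slc39a8 was 2.49-fold lower without NaCl and 1.55-fold lower with it on that scale, which shrinks changes of low genes. On recovered reads Slc39a8 was beyond 2-fold in both, at 6.50-fold and 3.09-fold lower. The share of all tested genes beyond 2-fold in both comparisons was not counted.

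Other genes of zinc handling were read beside these 10. Of 20 such genes, 10 passed the filter, and their log2 changes with mifepristone ranged from -0.37 to 0.46 without NaCl and from -0.50 to 0.48 with NaCl. Without NaCl 4 rose, 3 fell and 3 did not pass, against 59.7% of all tested genes called, with a median of -0.03. With NaCl in both arms 3 rose, 3 fell and 4 did not pass, against 58.7%, with a median of -0.09. Mtf1, Slc30a5 and Slc39a14 lay within the ranges of these genes. Slc39a11, another importer gene, rose in both (0.46, limma adjusted p = 2.19e-06, and 0.48, adjusted p = 1.44e-06). Slc39a6, a plasma membrane importer, rose by 0.33 with mifepristone without NaCl (adjusted p = 3.65e-06). Slc39a1 was the most abundant importer among these genes, at 41.4 FPKM in vehicle cells. It fell by 0.50 with mifepristone under NaCl (adjusted p = 1.32e-06). Slc30a7, an exporter of the Golgi, fell by 0.36 with mifepristone under NaCl (adjusted p = 0.00147).

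**Figure D4:**
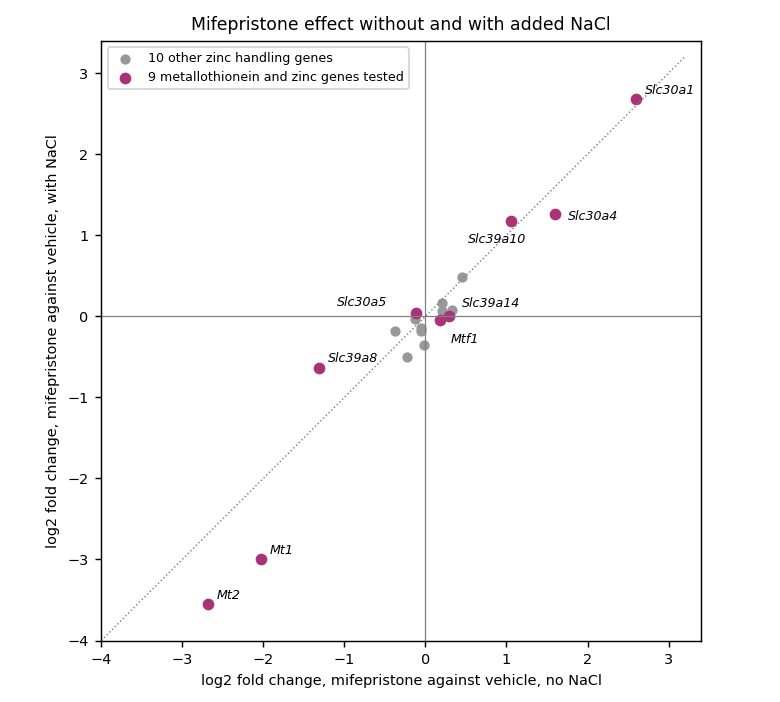
Log2 fold change of mifepristone against vehicle without NaCl (horizontal axis) and with NaCl (vertical axis) for the 9 tested genes and 10 other zinc handling genes. The dotted line marks equal changes. Mt1 and Mt2 lie below the line, Slc30a4 below it on the side of rises, and the other zinc handling genes lie between -0.50 and 0.48 on both axes.

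With NaCl in vehicle cells 5 of the other zinc handling genes rose, 2 fell and 3 did not pass, with a median of 0.11. Of all tested genes 56.7% were called there, 25.2% higher and 31.5% lower. Slc39a3, a plasma membrane importer, fell by 0.71 with NaCl in vehicle cells (limma adjusted p = 1.52e-07) and by 0.52 in mifepristone cells (adjusted p = 1.39e-06). Slc39a13, an importer of the secretory pathway, rose by 0.46 (adjusted p = 8.66e-07) and 0.33 (adjusted p = 1.04e-05). In mifepristone cells 1 rose, 3 fell and 6 did not pass, with a median of 0.00, against 58.7% of all tested genes called, 24.5% higher and 34.2% lower. The remaining metallothionein genes were at or near 0. Mt4 was listed at 0 in every library, and Mt3 had a mean of 0.0259 FPKM with both treatments and 0 in the other groups. Slc39a12 and Tmem163 were listed at 0 in every library.

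Copper and iron genes are given because metallothioneins bind copper and several of these carriers also move iron. Of 12 copper handling genes 10 were tested. With mifepristone without NaCl 3 rose, 3 fell and 4 did not pass (median -0.14), against 59.7% of all tested genes called, and the copper carriers Slc31a2 and Slc31a1 changed by -1.06 (limma adjusted p = 1.62e-09) and -0.57 (adjusted p = 7.30e-08). Cox17, a copper chaperone of mitochondria, rose by 0.70 (adjusted p = 3.59e-07). With NaCl in vehicle cells 5 rose, 1 fell and 4 did not pass (median 0.14), against 25.2% of all tested genes higher and 31.5% lower, with Slc31a2 at 0.87 (adjusted p = 1.22e-08). The 5 include Atp7b, a copper pump gene, which passed the filter only through that group, at a mean of 1.15 FPKM against at most 0.359 in the others. Of 15 iron handling genes 14 were tested, and 5 rose, 6 fell and 3 did not pass with mifepristone without NaCl (median 0.05). Of all tested genes 59.7% were called in that comparison, 28.3% higher and 31.5% lower. Slc25a37, the mitochondrial iron importer, rose by 1.03 (adjusted p = 9.17e-08), while the transferrin receptor gene Tfrc fell by 0.56 (adjusted p = 2.84e-07). The 6 that fell include Hfe, which passed the filter mainly through the vehicle arm. Its means were 1.46 FPKM in vehicle cells and 1.3 with NaCl, against 0.868 with mifepristone and 0.649 with both. Slc40a1, the iron exporter ferroportin, changed by -1.22 with NaCl in vehicle cells (adjusted p = 1.08e-09) and -1.55 in mifepristone cells (adjusted p = 1.16e-10).

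The receptor gene Nr3c1 and genes known to respond to glucocorticoids were read because mifepristone binds that receptor. Of 10 genes 9 were tested. With mifepristone 6 rose, 0 fell and 3 did not pass without NaCl (median 0.33), and 5 rose, 1 fell and 3 did not pass with NaCl (median 0.19), against 59.7% and 58.7% of all tested genes called. Of all tested genes 28.3% were higher and 31.5% lower without NaCl, and 26.8% and 31.9% with NaCl in both arms. Klf9, a transcription factor, rose by 1.37 with mifepristone without NaCl (limma adjusted p = 3.73e-08). Under NaCl its mifepristone difference was -0.03 (adjusted p = 0.739), and the interaction was -1.40 (adjusted p = 4.20e-06). Nr3c1 rose by 0.42 with mifepristone without NaCl (adjusted p = 0.000108), and its mifepristone difference under NaCl was -0.14 (adjusted p = 0.0675). The kinase gene Sgk1 rose by 0.81 with mifepristone without NaCl (adjusted p = 4.28e-08) and by 1.37 with mifepristone under NaCl (adjusted p = 5.50e-10). Fkbp5, a chaperone of the receptor, rose by 0.33 (adjusted p = 3.99e-05) and 0.47 (adjusted p = 2.06e-06). Tsc22d3 was the gene that fell with mifepristone under NaCl, by 0.24 (log2 change -0.24, adjusted p = 0.0197). Its mifepristone difference without NaCl was 0.02 (adjusted p = 0.85). Dusp1 and Errfi1 did not pass the test without NaCl, at -0.11 and -0.08, and rose by 0.41 and 0.19 under NaCl. With NaCl 4 rose, 4 fell and 1 did not pass in vehicle cells (median 0.04), and 2 rose, 5 fell and 2 did not pass in mifepristone cells (median -0.21), against 56.7% and 58.7% of all tested genes called. The part of this receptor in the metallothionein values was not tested. Sgk1, which is also known to respond to hypertonic medium, rose with NaCl by 3.53 in vehicle cells (adjusted p = 5.25e-13) and 4.09 in mifepristone cells (adjusted p = 1.48e-13).

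Likeness between the 9 tested genes is given as a description across 12 libraries that share the 4 groups. There, log2 levels of Mt1 and Mt2 had a Pearson correlation of 0.988. Slc30a1 and Slc30a4 correlated at 0.966, Slc30a1 and Slc39a10 at 0.978, and Slc30a4 and Slc39a10 at 0.982. Between Mt1 and these 3 genes the values were -0.678, -0.794 and -0.795 for Slc30a1, Slc30a4 and Slc39a10. Slc39a14 followed neither metallothionein gene, at -0.008 with Mt1 and -0.112 with Mt2. Over 2077 candidate genes, which spanned at least 2-fold between group means and had names other than predicted-gene symbols, those most like Mt1 were Idh2 (0.997), Lhfp (0.997), F3 (0.996), Oxct1 (0.995) and Anp32a (0.993). Those most like Mt2 were Herpud1 (0.997), Cyp51 (0.995), Gkap1 (0.995), Lmo4 (0.995) and Dtx3 (0.995). These genes shared the order of the groups but spanned narrower ranges. Oxct1, an enzyme of ketone body use, went from 52.9 FPKM in vehicle cells to 9.26 with both treatments, while Herpud1, a gene of the response to unfolded protein, went from 20.9 to 8.40.

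The authors' deposited table of mutant against control cells gives log2 fold changes of -2.01 for Mt1, -2.71 for Mt2, 2.77 for Slc30a1, 1.65 for Slc30a4, 1.16 for Slc39a10 and -2.65 for Slc39a8. Its adjusted p-values are 5.71e-21, 3.29e-69, 1.87e-270, 8.74e-33, 0.962 and 6.30e-32 in that order. In the authors' deposited table no adjusted p below 1 goes with a log2 fold change smaller than 1.07 in size, so its test may be against a minimum change. The authors' deposited table of the interaction gives an adjusted p of 1 for all 10 genes. The authors' deposited table also flags genes with a ChIP peak near them, and the flag is set for Slc30a4, Slc39a4, Slc39a8, Slc39a10 and Slc39a14. It is not set for Mt1, Mt2, Mtf1, Slc30a1 and Slc30a5. Thus 5 of the 10 genes carried the flag, beside 24.8% of the 23374 genes in that table and 28.4% of the tested genes, and the distance it rests on is not given in the sources used here.

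Recovered reads came to 41940955 to 49270776 per library, so that 3 reads correspond to 0.0609 to 0.0715 CPM (counts scaled to library size), a limit that covers counting error only. Markers of epithelium and collecting duct summed to 657 to 698 FPKM in vehicle cells, 437 to 452 with NaCl, 818 to 953 with mifepristone and 602 to 639 with both. Most of this was keratin, E-cadherin and Epcam RNA, and Aqp2, the water channel of the principal cell, had a mean of at most 0.0589 FPKM in any group, so this defining marker was at or near 0. Fibroblast markers summed to 0.249 to 0.342 FPKM in vehicle cells and 5.61 to 6.31 with mifepristone, through Dcn (0.078 to 5.69), with Pdgfra at no more than 0.0239 and Col1a2 at no more than 0.00240. Immune markers summed to 0.177 to 0.226 and 1.16 to 1.58 FPKM in these groups, and to 6.20 to 6.59 with both treatments, through Cd74, while Ptprc was at most 0.296. Endothelial markers reached at most 0.547 FPKM. Proximal tubule markers summed to 1.13 to 1.44 FPKM in vehicle cells and 0.363 to 0.509 with mifepristone, through Lrp2 (1.20 to 0.207), with Slc34a1 at no more than 0.0159 in any group. Intercalated cell markers summed to 0.315 to 0.322 and 1.46 to 1.49 FPKM in these groups, with Foxi1 at no more than 0.00309. The part of these markers in the zinc gene values was not tested.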

How the data were processed

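Poly(A)+ RNA of 12 IMCD3 libraries, 4 groups of 3, was sequenced. The authors used, per the submitters' processing notes, Trimmomatic 0.32, STAR 2.4.2a, SAMtools 1.0 and DESeq2 1.12.3 with GRCm38 (mm10), in roles and an order that the notes leave out. The sources used here do not give the counting program, its strand setting or its annotation. The authors deposited FPKM per gene and library. Their comparison tables hold, per the file headers, a mean normalized count signal, log2 fold changes and adjusted p-values. Control columns match the labels by name. Mutant columns were matched to mifepristone libraries by the NaCl part, the letter and knowledge that mifepristone induces the mutant, and 0 columns were left unmatched.

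Each FPKM value times the mean count over the mean FPKM of its gene gave whole reads within 0.05 for 100.0% of values in every library (32627 genes). Recovered reads were used for depth and in voom.

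Because FPKM is not a count, log2(FPKM + 0.5) values were tested with limma 3.58.1 in R 4.3.3. It used 4 group means, 8 residual degrees of freedom, a trended and robust variance prior, the 14044 genes that reached 1 FPKM in 3 or more libraries, and Benjamini-Hochberg adjustment over all of them. A call was an adjusted p below 0.05. The script was tested on simulated data. Comparisons that share a group share its libraries. Fold changes on this scale understate those of low genes. Gene positions are from GENCODE M21 (GRCm38), which matched 98.5% of gene identifiers, and promoters from RefSeq. Alternatives changed the pseudocount, filter, scaling, library weights, replicate block, threshold and libraries. All 10 genes are named, and from each further list up to 4 genes with the smallest adjusted p in a comparison, plus genes listed at 0. Tsc22d3 is named besides, as the glucocorticoid-responsive gene that fell with mifepristone under NaCl. The genes most like Mt1 and Mt2 were ranked by Pearson correlation over the 12 libraries. The 10 genes and all lists were chosen with earlier results of these data known.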

Additional observations from a re-analysis of the deposited data

Results flagged for a closer look

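For 3 genes, and for Slc39a8 with a limit, the effect of NaCl differed between mifepristone and vehicle cells by a test of the difference itself, the limma interaction over all 12 libraries. The same test passed for 31.1% of all tested genes, so such a difference was not particular to these genes. The difference in log2 units, mifepristone cells minus vehicle cells, was -0.97 for Mt1 and -0.86 for Mt2, where both arms fell and mifepristone cells fell further. It was -0.34 for Slc30a4, which rose with NaCl in vehicle cells and did not pass the test in mifepristone cells. It was 0.68 for Slc39a8, which fell with NaCl in vehicle cells and was already at 0.186 FPKM in mifepristone cells. Slc39a8 was tested only because its vehicle libraries passed the filter, so its value is a description. On recovered reads, with no added FPKM, the values for Mt1, Mt2 and Slc39a8 were -1.0, -1.08 and 1.07.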

How the results depend on the processing

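All 28 called changes of the tested genes kept their direction and a call at an adjusted p under 0.05 in each alternative fit, 609 values in all. The threshold of 0.01 was applied to counts and not to these values. Slc30a5 with NaCl in vehicle cells (limma adjusted p = 0.0114) does not pass it. Of 366 values for the 17 changes that were not called, 20 passed the test and 18 had the other sign. The added 0.5 FPKM, the depth of 57 to 62 reads per group behind Slc39a4 without NaCl, and the unknown strand setting limit the low and overlapping genes.

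The values with the other sign were all small and not called. For Slc39a14 they were -0.018 with library quality weights for mifepristone with NaCl, with -0.047 to 0.03 when single libraries were left out, and 0.0014 with median-ratio scaling and 0.0082 with quantile normalization for NaCl in vehicle cells, with -0.05 to 0.0073 when single libraries were left out. For Slc30a5 and NaCl in mifepristone cells they were 0.026 with either scaling, 0.044 with quality weights and 0.00011 without vehicle A and mifepristone C, with -0.05 to 0.021 when single libraries were left out. For Slc39a10 and NaCl in mifepristone cells they were -0.032 with quality weights and -0.028 without those 2 libraries, with -0.028 to 0.13 when single libraries were left out, and -0.012 with quality weights for the interaction. Mtf1 with mifepristone under NaCl ranged from -0.09 to 0.025 when single libraries were left out.

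Over all tested genes, 8240 were called for mifepristone with NaCl and 5414 with a filter at a mean FPKM of 5, which tests fewer genes. For the interaction 4374 were called, 2807 with that filter, 7156 with quality weights, 2618 at an adjusted p under 0.01, and 3512 to 6784 when single libraries were left out, the highest without mifepristone library C. The cause was not tested.

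With the letter of the labels as a replicate block, 7, 6, 7, 4 and 4 of the 9 genes were called in the 4 comparisons and the interaction, the numbers found without it, and Mt1 changed by -2.03 with mifepristone without NaCl (limma adjusted p = 2.47e-06). Nothing says that a letter marks a shared culture. Deviations of same-letter libraries correlated at -0.5 to 0.288, with 6 of 18 pairs above 0.1, so the letters were not taken as pairs.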
